A study of Homo sapiens with 2 samples.

Results

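The regions described here are 46 runs of closely spaced LSD2 peaks in HepG2 cells. A run was a maximal series of 15 or more successive peaks on a chromosome with 2000 bp or less between the end of each peak and the start of the next. The runs held 898 of the 370863 distinct peaks, or 0.242%. LSD2-bound DNA was measured by chromatin immunoprecipitation and sequencing (ChIP-seq) in 1 library of HepG2, an established human liver tumour line with an unbalanced chromosome number. A further library of input chromatin from the same line was sequenced without immunoprecipitation. Both came from cells kept in high-glucose (25 mM) medium with 10% serum and given no other treatment, and the ChIP used a rabbit polyclonal antibody against the human protein. The deposited result was the list of intervals where LSD2 ChIP passed the peak caller's cutoff over input, on hg19, with no height or p-value for any peak. The depth of both libraries is unknown here. With 1 library a group there was no replicate error and no test, and each value below describes this 1 peak list.

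LSD2 is the product of KDM1B and removes methyl groups from histone H3 with a flavin cofactor. It is best known from the female germ line of mice, where it is needed to set up DNA methylation at imprinted genes. In human cells it has been described along the transcribed bodies of active genes, together with elongating RNA polymerase and histone methyltransferases. The runs were chosen by the start and end positions of the peaks, so their spacing is a description and not a finding. Peak width came from the same list and also enters the rule, since a wider peak leaves a shorter gap, and it is likewise described without a test.

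The gene given for each run is background. It is the gene known to lie at that position in hg19 and was not read from an annotation of that build. All 47 symbols named for 45 of the runs were found in RefSeq (GRCh38.p14) on the chromosome of their run. That match was by chromosome only and does not check the position of a gene. Without an annotation of hg19, no exon, intron or distance to a gene's start or end was measured. A run's place in its gene was therefore not analysed here. The values of single runs do not rest on a gene name. The groups by role do, for their membership and so for their counts and shares, and they were formed after the positions had been seen. The number of genes of each role in the genome was not counted. The number of runs in a group therefore shows no preference of the runs for that role.

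The runs were short, dense and similar in size apart from a few long ones. They added up to 946.9 kb, or 0.0351% of the effective genome size (2700 Mb) set in the peak caller. Of the 46 runs, 38 had 15 to 20 peaks and 8 had more, with a median of 18 peaks and a maximum of 57. Length ran from 12.8 to 66.9 kb, with a median of 18.8 kb. Peaks covered 23.3% to 53.9% of a run, with a median of 35.4%, whereas all peaks together covered 3.22% of the effective genome. The runs had 7.25 to 11.8 peaks per 10 kb, against 1.37 peaks per 10 kb over the effective genome. Of all gaps between neighbouring peaks in the list, 30.3% were 2000 bp or less, the condition that joined peaks into a run. Within runs the gap had a median of 550 bp (quartiles 236.5 and 1052 bp). Gaps under 200 bp made up 21.7% of the 852 gaps in runs, against 3.02% of all gaps in the list. These shares are not like for like, since the rule leaves no gap over 2000 bp in a run. Of the 370839 gaps in the list, 112378 were 2000 bp or less and 11199 were under 200 bp. Runs lay on 17 chromosomes, and the remaining chromosomes had none. Chromosome 2 carried 8 runs with 208 peaks, chromosomes 4, 10 and 16 carried 4 runs each, and the others of the 17 carried at most 3. These counts were not set beside each chromosome's share of all peaks.

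**Figure D1:**
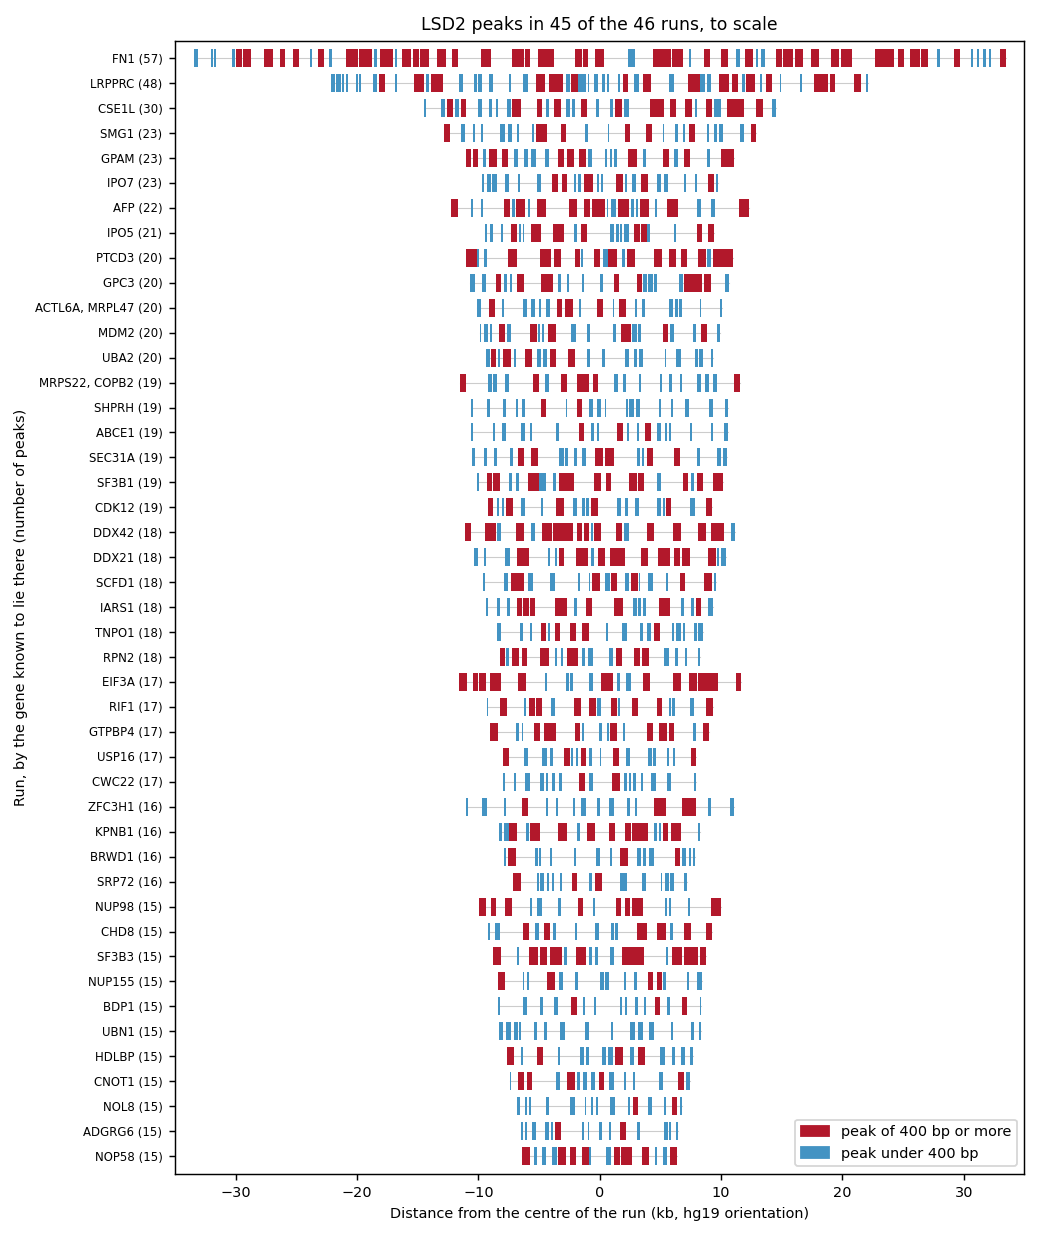
Every peak of 45 of the 46 runs, drawn to scale. The horizontal axis is the distance from the centre of the run in kb, each row is 1 run labelled with the gene known to lie there and its number of peaks, and red boxes are peaks of 400 bp or more while blue boxes are narrower ones. Wide and narrow peaks are mixed along most runs, and the FN1 and LRPPRC rows, with 57 and 48 peaks, reach farthest from the centre.

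The thresholds of the rule fell inside a continuous range. There were 12 runs of exactly 15 peaks, and just outside the rule lay 14 chains of 14 peaks and 15 chains of 13. Median width within single runs of 15 peaks was 199 to 516 bp, against 220.5 to 400 bp in the chains of 14. The largest gap inside any run was 1999 bp and the smallest gap at a run's border was 2008 bp. Of the 92 run borders, 23 had a gap of 2500 bp or less to the next peak outside.

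Peaks in the runs were wide. In runs 347 of 898 peaks (38.6%) were 400 bp or wider, against 7.89% of all distinct peaks. The narrow class, from 140 bp to below 170 bp, held 16.04% of the peaks in runs and 47.35% of the peaks outside, with 47.3% over all distinct peaks. Peaks from 200 bp to below 400 bp had nearly equal shares, 37.5% in runs and 34.3% outside. Peaks of 1000 bp or more numbered 27 in runs (3.01%), against 344 outside (0.0930%). Median width was 349 bp in runs (quartiles 208.2 and 503.8 bp), against 172 bp outside (152 and 297 bp). Narrow peaks were nevertheless found almost everywhere, as 44 of the 46 runs had a peak under 170 bp. The 2 runs without one lay at SEC31A, whose narrowest peak was 182 bp, and at DDX42, whose narrowest was 199 bp. A peak of 1000 bp or more was present in 15 runs. Some intervals were deposited on more than 1 line, among them 80 of the 898 peaks in runs (8.91%), against 10.1% of all distinct peaks. These repeats were uneven, as 27 runs had none, while 17 of the 19 peaks of the run at ABCE1 and 8 of the 18 at TNPO1 were repeated.

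**Figure D2:**
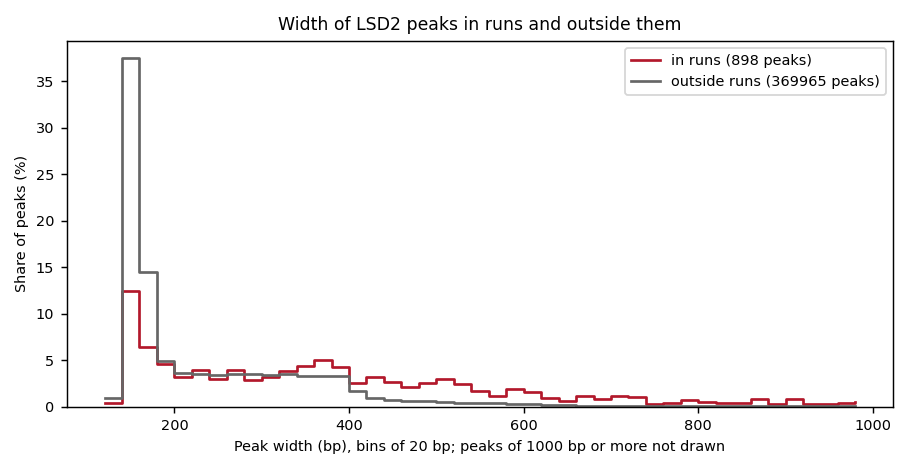
Share of peaks (%) by peak width in bins of 20 bp, for the 898 peaks in runs and the 369965 peaks outside. Peaks in runs have a lower share from 140 bp to below 170 bp (16.04% against 47.35%) and a long tail above 400 bp (38.6% of peaks in runs, against 7.81% of those outside).

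The longest run covered 66.9 kb at FN1, the gene of fibronectin, a large matrix glycoprotein that liver cells also secrete into plasma. It lay on chromosome 2 from 216222491 to 216289420. Its 57 peaks were 140 to 1619 bp wide with a median of 508 bp, and 38 of them reached 400 bp. Its longest stretch of wide peaks was a series of 12 successive peaks of 432 to 1283 bp, from 216239637 to 216256309, which ended near the centre of the run. Next to it came peaks of 389 and 157 bp, and beyond those a peak of 1552 bp from 216260307 to 216261858. The widest peak of all, 1619 bp from 216278628 to 216280246, was the 47th of the 57. The high-position end was narrower, with peaks of 192, 491, 161, 140, 181, 152 and 456 bp as the last 7. The low-position end began with peaks of 346, 188, 147 and 282 bp. Both ends of this run were thus made of narrower peaks than its middle. By 5 equal groups of peaks in rank order, the medians were 405.5, 730, 510.5, 627 and 456 bp from low to high position.

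A second long run lay at LRPPRC, which encodes a protein that stabilises mitochondrial messenger RNA. It had 48 peaks on chromosome 2 from 44168309 to 44212604, with widths of 142 to 1145 bp and a median of 354 bp. Its closest peaks were 3 bp apart, and 18 of its 47 gaps were under 200 bp. As at FN1, the low-position end was the narrowest of the 5 groups (251 bp). The centre was almost as narrow (262 bp) and the high-position end was the widest group (456 bp). At most 3 successive peaks reached 400 bp, although 16 did in all. A further mitochondrial gene, PTCD3, encodes a mitochondrial ribosomal protein and lies at a run of 20 peaks on chromosome 2 from 86341548 to 86363554. Its median of 559 bp was the highest of the 46 runs, with widths of 158 to 909 bp. The high-position end of that run was its widest part, at 699.5 bp, against 444.5 bp in the centre.

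Nuclear transport genes lay at 7 runs with 138 peaks. These proteins carry cargo through the nuclear pore or build the pore itself. At CSE1L, the exportin that returns importin alpha to the cytoplasm, 30 peaks ran on chromosome 20 from 47673101 to 47702125 and covered 45.1% of 29.0 kb. Their widths were 152 to 1357 bp with a median of 374.5 bp, and the centre was narrower (287 bp) than the edges (374 bp). The importin gene IPO7 lies at 23 peaks on chromosome 11 from 9425777 to 9445237, with widths of 143 to 708 bp and a median of 324 bp. This run had the densest peaks of all, at 11.8 per 10 kb, and its high-position end (164.5 bp) was much narrower than its other parts (324 to 387 bp). At IPO5, another importin, 21 peaks on chromosome 13 from 98634305 to 98653175 were 149 to 874 bp wide with a median of 332 bp. KPNB1, which encodes importin beta, lies at 16 peaks on chromosome 17 from 45745150 to 45761703, with a median of 453.5 bp and a highest width of 1308 bp. TNPO1, the gene of transportin, lies at 18 peaks on chromosome 5 from 72168261 to 72185246, with a median of 341.5 bp and a highest width of 535 bp. The nuclear pore genes NUP98 and NUP155 lie at 15 peaks each. The NUP98 run, on chromosome 11 from 3743194 to 3763172, had a median of 428 bp. The NUP155 run, on chromosome 5 from 37328637 to 37345419, had a median of 290 bp. Centre peaks were wider than edge peaks in 4 of the 7 runs.

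Genes of secreted, surface or lipid proteins lay at 5 runs with 137 peaks. Of these 50.4% reached 400 bp, against 38.6% of all peaks in runs, and FN1 carried the difference, since 31 of 80 peaks (38.8%) did in the other 4 runs. Besides FN1, these were the runs at AFP, GPC3, GPAM and ADGRG6. AFP encodes alpha-fetoprotein, the fetal plasma protein that is a serum marker of liver cancer. Its run had 22 peaks on chromosome 4 from 74299932 to 74324476, with widths of 142 to 1141 bp and a median of 421.5 bp. Width changed sharply along it, with medians of 266, 695, 455, 209.5 and 593.5 bp in the 5 groups. GPC3 encodes glypican 3, a cell-surface proteoglycan also used as a marker of liver cancer. Its run of 20 peaks, from 133097485 to 133118819, was the single run on chromosome X, with widths of 158 to 1500 bp and a median of 370.5 bp. GPAM encodes a mitochondrial acyltransferase that starts glycerolipid synthesis. The 23 peaks there, on chromosome 10 from 113918545 to 113940631, were 146 to 1081 bp wide with a median of 372 bp, and the last of them was the widest. ADGRG6, an adhesion receptor gene, lies at 15 peaks on chromosome 6 from 142710528 to 142723447. That run was among the narrowest, with a median of 240 bp and a highest width of 481 bp.

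Splicing genes lay at 4 runs with 69 peaks, of which 50.7% reached 400 bp, against 38.6% of all peaks in runs. The group is small and its share was not tested. SF3B1 and SF3B3 encode subunits of the same complex, which recognises the branch site of introns. The SF3B1 run had 19 peaks on chromosome 2 from 198257790 to 198278084, with a median of 422 bp. The SF3B3 run had 15 peaks on chromosome 16 from 70585908 to 70603450, with a median of 516 bp, and held the widest peak of any run, at 1827 bp. Its centre was far narrower than its edges, 228 bp against 689 bp, the lowest ratio of centre to edge among the runs. DDX42, an RNA helicase gene, lies at 18 peaks on chromosome 17 from 61866919 to 61889164. There the median was 534.5 bp and 13 of the peaks reached 400 bp. CWC22 encodes a spliceosome protein that helps load the exon junction complex. Its 17 peaks on chromosome 2 from 180826450 to 180842365 had a median of 238 bp, and 2 of them reached 400 bp. Within this small group, run medians were thus spread from 238 to 534.5 bp.

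Genes of ribosome production and translation lay at 7 runs with 119 peaks. Among them NOP58, a core protein of the small nucleolar particles that guide RNA methylation, had the shortest and most fully covered run. Its 15 peaks on chromosome 2 spanned 12.8 kb from 203156738 to 203169501 and covered 53.9% of it, with a median of 484 bp. DDX21, a nucleolar helicase gene, lies at 18 peaks on chromosome 10 from 70716773 to 70737521, with a median of 497.5 bp and 7 successive peaks of 400 bp or more. EIF3A encodes the largest subunit of a translation initiation complex. Its 17 peaks on chromosome 10 from 120809485 to 120832746 had a median of 549 bp, and the next peak above it was 20794 bp away, the largest border gap of the set. GTPBP4, which encodes a GTPase of large-subunit assembly, lies at 17 peaks on chromosome 10 from 1034490 to 1052494, with a median of 451 bp. IARS1, the cytosolic isoleucyl-tRNA synthetase gene, lies at 18 peaks on chromosome 9 from 95008305 to 95026972, with a median of 339.5 bp. The next run on that chromosome, at the nucleolar gene NOL8, was 31.2 kb away and had 15 peaks from 95058171 to 95071785. Its median of 199 bp was the lowest of the 46 runs, and the 24 peaks between both runs had a median of 299.5 bp. ABCE1 encodes the factor that splits ribosomes after translation. Its run of 19 peaks on chromosome 4 from 146032152 to 146053306 was also narrow, with a median of 209 bp.

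Genes of the secretory pathway lay at 5 runs with 90 peaks. SEC31A encodes a coat protein of vesicles that leave the endoplasmic reticulum, and lies at 19 peaks on chromosome 4 from 83781845 to 83802842. The centre of that run was wider than its edges, 489 bp against 257 bp, a ratio of 1.90. RPN2, a subunit of the enzyme that attaches glycans to new proteins, lies at 18 peaks on chromosome 20 from 35852243 to 35868719, with a median of 380 bp. SRP72, part of the signal recognition particle, lies at 16 peaks on chromosome 4 from 57336246 to 57350621, with a median of 274 bp, and there the first peak was the widest. SCFD1, a gene of vesicle fusion, lies at 18 peaks on chromosome 14 from 31095371 to 31114568, with a median of 362.5 bp. The fifth run, of 19 peaks on chromosome 3 from 139068897 to 139091951, lies where the coat protein gene COPB2 neighbours MRPS22, a mitochondrial ribosomal protein gene. Its median was 352 bp.

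Genes of messenger RNA synthesis, export and decay lay at 5 runs with 88 peaks, none with a median above 347 bp. SMG1, the kinase of nonsense-mediated decay, lies at 23 peaks on chromosome 16 from 18871259 to 18896972. They were 144 to 911 bp wide with a median of 314 bp and covered 28.9% of the run. CNOT1, the scaffold of the main deadenylase complex, lies at 15 peaks on chromosome 16 from 58565358 to 58580222, with a median of 347 bp. CDK12, a kinase of the RNA polymerase tail, lies at 19 peaks on chromosome 17 from 37669502 to 37687957, with a median of 340 bp. HDLBP, which encodes the RNA-binding protein vigilin, lies at 15 peaks on chromosome 2 from 242190626 to 242205936, with a median of 318 bp. ZFC3H1 encodes a nuclear protein that directs RNA to decay. The run there, of 16 peaks on chromosome 12 from 72012689 to 72034746, was the sparsest at 7.25 peaks per 10 kb, with a median gap of 1209 bp.

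A further 10 runs lay at genes of ubiquitin or SUMO transfer and at genes of chromatin and transcription. For protein modification there were 4 runs with 76 peaks. MDM2, the ubiquitin ligase of p53, lies at 20 peaks on chromosome 12 from 69206996 to 69226803, with a median of 303 bp. UBA2, part of the SUMO-activating enzyme, lies at 20 peaks on chromosome 19 from 34924969 to 34943657, with a median of 295.5 bp. The ligase gene SHPRH, at 19 peaks on chromosome 6 from 146248087 to 146269304, had a median of 255 bp. The deubiquitinase gene USP16, at 17 peaks on chromosome 21 from 30407234 to 30423162, had a median of 344 bp.

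The chromatin and transcription group had 6 runs with 98 peaks. Of these, 26.5% reached 400 bp, and 23.7% did in the 4 runs at protein modification genes, against 38.6% of all peaks in runs. The share was also low at genes of messenger RNA synthesis, export and decay (28.4%) and of the secretory pathway (32.2%). It was 39.1% at nuclear transport genes, 43.7% at genes of ribosome production and translation and 44.1% at mitochondrial genes. Within the chromatin and transcription group it ran from 0% at UBN1 to 52.9% at RIF1. These groups are small and their shares were not tested. RIF1, which acts in replication timing and DNA repair, lies at 17 peaks on chromosome 2 from 152310111 to 152328763, with a median of 443 bp. CHD8, a chromatin remodeller gene, lies at 15 peaks on chromosome 14 from 21878403 to 21896845, with a median of 326 bp. BRWD1 encodes a bromodomain protein and lies at 16 peaks on chromosome 21 from 40636416 to 40652146, with a median of 243.5 bp. Its centre was 357 bp and its edges 160 bp, the highest ratio of centre to edge among the runs (2.23). UBN1, a histone chaperone gene, lies at 15 peaks on chromosome 16 from 4916725 to 4933383. None of them reached 400 bp, and this run stood out most from its flanks of 500 kb on both sides, at 9.28 times their peak density. BDP1, a subunit of the initiation factor of RNA polymerase III, lies at 15 peaks on chromosome 5 from 70801156 to 70817901, which covered 23.3% of the run, the lowest share. The sixth of these runs, 20 peaks on chromosome 3 from 179298469 to 179318673 with a median of 282 bp, lies where the remodeller subunit gene ACTL6A neighbours MRPL47, a mitochondrial ribosomal protein gene.

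Peak width changed little from the edge of a run to its centre. Each run was divided by rank into 5 groups of nearly equal size, with the outer groups as its edges and the middle group as its centre. The median over the 46 runs was 346.2 bp in the centre (lowest 175 bp, highest 597 bp) and 323.8 bp at the edges (lowest 160 bp, highest 699.5 bp). The ratio of centre to edge had a median of 1.07 with quartiles of 0.842 and 1.32. The centre was wider in 26 runs and narrower in 20. Single runs differed far more than this median, from 0.331 at SF3B3 to 2.23 at BRWD1, but the centre of such a run of 15 or 16 peaks is only a few peaks. From low to high position the median over runs was 320.2, 348, 346.2, 360 and 342.5 bp in the 5 groups. Base coverage by 5 equal lengths of the run was as even, at 37.6%, 34.7%, 35.5%, 35.2% and 33.6%. The widest peak lay in the middle group in 11 runs and in the outer groups in 11, and it was the first or last peak in 2. The high-position end was wider than the low-position end in 27 runs and narrower in 19. The direction of transcription was not used here.

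**Figure D3:**
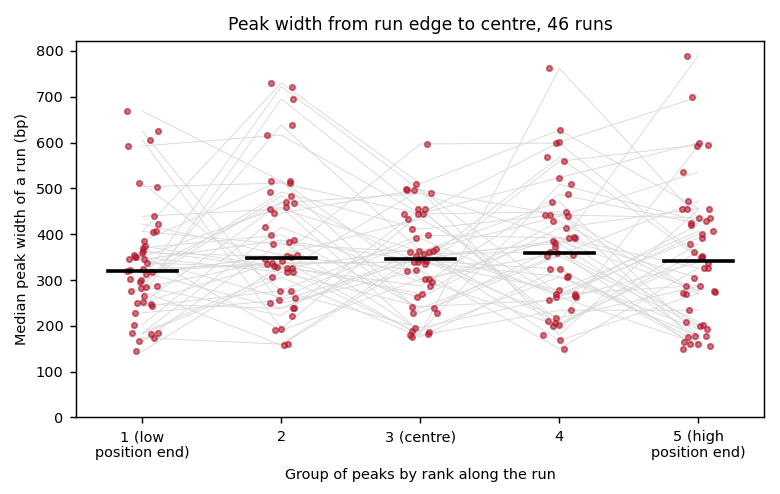
Median peak width in bp (vertical axis) of each of the 46 runs in 5 groups of peaks by rank along the run, from the low-position end to the high-position end. Points are runs, grey lines join the groups of a run and black bars are medians over runs, which stay between 320.2 and 360 bp while single runs move up and down.

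Counted from the nearest end of a run, the outermost peaks had a median of 326 bp (92 peaks), the next 321.5 bp and the third 283.5 bp. From the fourth to the eighth peak the medians were between 332.5 and 360 bp. The outer 3 positions therefore had the 3 lowest medians of the 8, by differences smaller than the distance between the quartiles at any position (177.5 and 481.25 bp for the outermost peak).

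Width was somewhat lower outside the border of a run. The first peak outside had a median of 281.5 bp and the second 321.5 bp, against 326 and 321.5 bp inside. From the third to the eighth peak the medians were 213 to 279 bp outside, against 283.5 to 360 bp inside. The share of 400 bp or more was 38.0% for the outermost peak inside and 23.9% for the first outside. At the second position it was 30.4% inside and 33.7% outside. All 8 positions outside were above the 172 bp median of peaks outside runs. With distance, peaks in the 10 kb next to a run had a median of 303.5 bp and those 90 to 100 kb away had 178 bp. Peak number next to a run is set by the rule on both sides of the border and is given as a description. The 92 stretches of 10 kb next to a run had a median of 3 peaks (quartiles 2 and 5), whereas the runs had a median of 9.41 peaks per 10 kb. From 90 to 100 kb away the median was 1 peak (quartiles 1 and 2). The first stretch begins with over 2000 bp free of peaks by the rule, which lowers its count, as the rule raises the count inside.

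**Figure D4:**
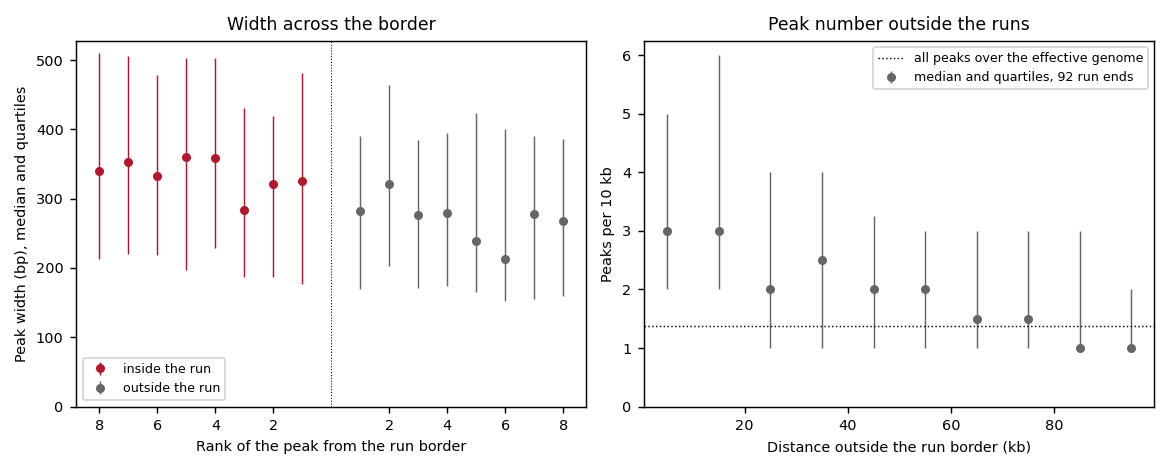
Left, peak width in bp (median and quartiles) by rank from the run border, inside the run in red and outside in grey. Right, peaks per 10 kb beyond the border of each run against distance in kb (median and quartiles over 92 run ends). The dotted line is the 1.37 peaks per 10 kb of the effective genome. Peaks of another run within 100 kb were counted, as at IARS1 and NOL8, whose runs lie 31.2 kb apart. Median width is 283.5 to 360 bp over the positions inside and 213 to 321.5 bp over those outside, and the number of peaks outside declines over 100 kb.

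The regions around the runs also had many and wide peaks. The 500 kb on either side of a run held a median of 1.78 peaks per 10 kb over the 46 runs (lowest 0.97, highest 3.09), and in 39 of them this was above the 1.37 of the effective genome. Median width there was 201.5 bp over runs, and it was above 172 bp in 41 of 46. The runs themselves were 2.65 to 9.28 times as dense as these flanks, with a median of 5.46 times. Among the runs named above, the run at SCFD1 had the densest flanks (2.92 peaks per 10 kb) and the widest flanking peaks (a median of 287 bp). Peaks of any other run within 500 kb were kept in these flanks, so flank counts and widths are not all from outside the runs. Copy number, mappability and read depth of these regions were not measured here, and their part in the spacing and width of the peaks was not tested.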

How the data were processed

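LSD2 ChIP and input DNA of HepG2 cells were each sequenced as 1 library, grouped here by source name. Per the submitters' processing notes, BWA and hg19 were used. Per the file headers, the authors trimmed reads, removed duplicates and ran MACS with LSD2 as treatment and input as control (read and fragment length 120 bp, effective genome size 2700 Mb, p-value cutoff 1e-05, enrichment factor 32). The deposited values are other than counts: start and end positions in bases. Depth is unknown, so no interval was computed.

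Identical lines were counted once (414095 lines, 370863 intervals), and positions are given from 1. Runs, widths and gaps were computed with Python 3.11.15, numpy 2.4.6 and pandas 2.3.3. The run finder was tested on simulated data and found 20 of 20 planted runs. No background gap in that simulation was 2000 bp or less, so it checked the code and not the runs of these data. The runs and the gene groups were chosen with earlier results of these data known. The 10 runs with most peaks, and the extremes of centre over edge, were to be described in full, and all others by gene and count. The planned count of runs inside genes, the place along genes and the planned gene lists were not run, since no annotation of hg19 was used here. No sequence is shown for the same reason. Of the 46 runs, 1 enters the counts and medians but is not reported here by name or position.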

Additional observations from a re-analysis of the deposited data

How the results depend on the processing

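The number of runs followed the rule closely. It was 1 with gaps up to 1000 bp, 184 with gaps up to 3000 bp, 241 with 10 or more peaks, 13 with 20 or more peaks, 199 with every deposited line counted and 16 among peaks at least as wide as the median peak, against 46. Peaks in runs numbered 15, 3618, 3066, 347, 3865 and 321 in the same order, against 898. Fewer or more peaks entered by construction in each of these. Merging peaks up to 100 bp apart gave 41 runs with 763 peaks. The median ratio of centre to edge width was 0.996 to 1.17 under 8 of the 9 alternatives, against 1.07. These values lie on both sides of 1. The SD over single runs was 0.419, which is the spread of runs and not the error of this median. With gaps up to 1000 bp the ratio was 0.35, from the 1 run left. No paired analysis was possible because LSD2 ChIP and input have 1 library each. Alternatives for genes were not run. Unknown depth limits every count, since a gap between peaks can be sequence that lacked reads.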
